A study of Mus musculus with 4 samples.

Results

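Disease-associated microglia genes are a set of transcripts, most of them linked to phagocytosis, lipid handling, and the lysosome, that microglia raise in neurodegeneration and demyelination. The 10 genes described here were chosen by name: *Trem2*, *Tyrobp*, *Gpnmb*, *Fabp5*, *Spp1*, *Lgals3*, *Cst7*, *Itgax*, *Clec7a*, and *Cd9*. *Clec7a* has no row in the count tables used here, so that 9 of the 10 genes were measured, out of 27998 genes in all. They were followed in 12495 myeloid barcodes, of which 2854 were microglia and 9641 were other myeloid barcodes, out of 26580 barcodes with at least 2000 unique molecular identifiers (UMIs, each of which marks 1 captured transcript).

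The cells came from spinal cords (SCs) of mice with EAE, a T cell–driven model of MS induced with a myelin oligodendrocyte glycoprotein peptide in CFA. The blockade pair was wild-type C57Bl/6JOlaHsd mice of 15 weeks, treated from the day of immunization with mIgG1 or with an angiopoietin-2 (Ang2) blocking antibody (Ang2 Ab) and analyzed at 14 dpi. The overexpression pair was C57Bl/6JCrl mice of 12 to 14 weeks analyzed at 12 dpi without antibody, namely single transgenic controls (Ctrl) and mice that carry both *VE-cadherin-tTA* and *Tet-OS-Ang2* (*EC-Ang2*), in which an endothelial promoter drives the Ang2 transgene from birth. Per the study's methods, mice of both pairs also received pertussis toxin at induction, at a lower dose in the overexpression pair. CD45+ immune cells and CD31+ ECs were sorted in equal numbers and captured with 10x Genomics 3′ chemistry as 1 library per condition, so that conditions could not be tested against each other, and pair, strain, age, day, and toxin dose cannot be told apart. How many mice went into a library is not given in the sources used here.

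TREM2 is a lipid-sensing receptor of microglia and macrophages that signals through the adaptor TYROBP (DAP12). In mouse models of amyloid deposition and demyelination, microglia need this pair to raise most of the other genes of the set, while homeostatic genes such as *Tmem119* and *P2ry12* are lowered. Several of the genes, *Spp1*, *Gpnmb*, *Fabp5*, and *Lgals3* among them, are also used by macrophages that take up lipid, and *Itgax* marks dendritic cells as well. In EAE, where blood-derived macrophages enter the SC beside resident microglia, the set therefore has to be read in both.

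Microglia were barcodes with at least 10 UMIs of the myeloid genes *Tyrobp*, *Fcer1g*, and *Ctss* together and at least 4 UMIs of the microglial genes *Tmem119*, *P2ry12*, *Olfml3*, and *Siglech* together, and other myeloid barcodes had fewer than 4. Microglia numbered 667 (mIgG1), 652 (Ang2 Ab), 1357 (Ctrl), and 178 (*EC-Ang2*), and other myeloid barcodes, in this order of libraries, which is kept below, 2943, 2939, 1416, and 2343. Microglia had a median of 13800, 11172.5, 7370, and 10977 UMIs and other myeloid barcodes 7895, 5896, 6877.5, and 7665. The label held against genes that the rule did not use: of 12 homeostatic microglial genes outside the rule, 11 were higher in microglia than in other myeloid barcodes by edgeR's quasi-likelihood test, led by *Sall1* (log2 difference 4.73), *Gpr34* (4.69), *Fcrls* (4.02), and *Cx3cr1* (3.59), and all 6 macrophage genes tested were lower. However, 57.12%, 48.16%, 23.21%, and 56.18% of the microglia also held transcripts of 2 or more of these 6 genes (*Arg1*, *Chil3*, *Ccr2*, *Ly6c2*, *Ms4a4c*, and *Plac8*). Doublet scores from Scrublet were called high for the top-ranked barcodes of a library, up to a number fixed by its count of barcodes. They were high in 12.74%, 11.81%, 12.31%, and 6.74% of microglia and in 8.09%, 9.77%, 7.13%, and 7.47% of other myeloid barcodes. The part of doublets in the macrophage transcripts of microglia was not tested. The main levels, ratios, and correlations in microglia are therefore also given for stringent microglia, those with at least 8 UMIs of the microglial genes and fewer than 2 of the 6 macrophage genes after each barcode was thinned to 2000 UMIs. These numbered 212, 270, 885, and 51, and the definition was chosen after the data were seen.

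The libraries held 66631583, 57954609, 52084739, and 52796061 UMIs. Pairs of libraries shared 51 to 77 barcode sequences, against 48.9 to 71.3 that barcodes drawn independently would share. Free RNA made up at most 3.47% to 4.71% of the UMIs of microglia and 4.17% to 5.0% of those of other myeloid barcodes. Levels are UMIs summed over the barcodes of a class in 1 library per 1000000 UMIs of those barcodes (CPM), and intervals cover counting error only.

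The start sites of the genes that the results turn on are shown because motifs of factors of the lysosomal program and of macrophages are often looked for there. RefSeq promoters on GRCm38.p6 were found for 7 of the 9 measured genes, 8 promoters in all, with none in the table for *Tyrobp* and *Fabp5*. The 250 bases upstream of the start site were searched on both strands for CACGTG (a core of sites for MITF and TFE factors), TGANTCA (an AP-1-like form), GAGGAA (a core of PU.1 sites), and TATAAA. The AP-1-like form allows any middle base and is wider than the AP-1 consensus, which has C or G there. Capitals mark matches to these motifs, all 4 genes are on the plus strand, and each sequence runs 5′ to 3′ up to the start site.
Trem2, chr17:48346151-48346400: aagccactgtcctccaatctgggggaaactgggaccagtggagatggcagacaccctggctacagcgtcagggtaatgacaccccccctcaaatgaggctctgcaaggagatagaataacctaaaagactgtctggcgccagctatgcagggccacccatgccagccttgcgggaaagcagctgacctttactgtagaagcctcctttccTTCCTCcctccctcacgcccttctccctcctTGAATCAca
Cst7, chr2:150570165-150570414: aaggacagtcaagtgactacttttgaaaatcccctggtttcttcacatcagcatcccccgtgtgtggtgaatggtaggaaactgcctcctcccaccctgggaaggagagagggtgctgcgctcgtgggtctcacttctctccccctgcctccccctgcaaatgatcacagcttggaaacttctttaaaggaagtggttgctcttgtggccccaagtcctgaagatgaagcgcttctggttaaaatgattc
Gpnmb, chr6:49036268-49036517: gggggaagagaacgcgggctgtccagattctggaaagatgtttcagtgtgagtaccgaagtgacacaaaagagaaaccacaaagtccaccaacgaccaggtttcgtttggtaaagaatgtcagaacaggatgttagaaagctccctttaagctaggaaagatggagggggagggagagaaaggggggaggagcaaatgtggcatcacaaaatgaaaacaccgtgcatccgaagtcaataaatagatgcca
Spp1, chr5:104434861-104435110: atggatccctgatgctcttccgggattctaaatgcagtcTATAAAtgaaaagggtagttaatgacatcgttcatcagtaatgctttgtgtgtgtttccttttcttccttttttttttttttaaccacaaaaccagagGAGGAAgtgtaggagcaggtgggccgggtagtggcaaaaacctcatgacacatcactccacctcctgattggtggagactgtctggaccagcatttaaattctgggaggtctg
The *Trem2* promoter held TGAATCA, an AP-1-like match with A in the middle, 9 bases before the start site. It held the PU.1 letters, as TTCCTC on the strand shown, 40 bases before it. The *Spp1* promoter held GAGGAA 113 bases and TATAAA 211 bases before its start site. Of the promoters not shown, only that of *Itgax* held any of these motifs, an AP-1-like match (TGANTCA) 56 bases before the start site. CACGTG was in none of the 8 promoters. Among 32851 mouse promoters of the same length, 6.02% held CACGTG, 6.75% TGANTCA, 23.25% GAGGAA, and 12.37% TATAAA, and a match or its lack in this window says nothing about whether a factor binds.

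The first question was where the genes are expressed. *Trem2* and *Cst7* were higher in microglia than in other myeloid barcodes, whereas the levels of *Lgals3*, *Fabp5*, *Gpnmb*, *Itgax*, and *Spp1* were lower. The 2 classes were compared within the 4 libraries by edgeR's quasi-likelihood test on summed UMIs with the library as a block (n = 4 libraries of 4 conditions). Of 12264 genes tested, 39.8% passed an adjusted p of 0.05, 19% higher and 20.8% lower in microglia, and in 31.4% of genes the 4 microglial levels and the 4 other levels did not overlap. In the set they did not overlap for *Trem2*, *Cst7*, and *Lgals3*, a share of the 9 measured genes close to that of all genes. Of the 9 measured genes, 2 were higher, 5 were lower, and 2 did not pass, and without the library as a block only *Trem2*, *Cst7*, and *Lgals3* passed. Their median log2 difference was −0.75 against −0.0025 for all genes. Of all calls, 47.81% were higher in microglia, and 69.82% with total UMI scaling, which moved the median of all genes to 0.2042 but left these 7 calls. No gene of the set was used to separate the classes, although *Tyrobp* is among the 3 genes that both classes had to express.

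*Trem2* (chr17:48346401-48354147, GRCm38) was measured at 882, 620, 816, and 520 CPM in microglia and at 501, 244, 143, and 181 CPM in other myeloid barcodes. The lowest microglial level, that of *EC-Ang2*, lay just above the highest level in other myeloid barcodes, that of mIgG1. The log2 difference was 1.33 (SE 0.20, edgeR adjusted p = 0.00146). Within libraries, the log2 ratio of CPM, which is scaled by total UMIs and not as in the test, ranged from 0.81 in mIgG1 to 2.51 in Ctrl. In barcodes thinned to 2000 UMIs, a *Trem2* UMI was found in 76.61%, 66.56%, 75.53%, and 56.74% of microglia and in 52.94%, 31.41%, 21.96%, and 23.18% of other myeloid barcodes. Without thinning the shares of microglia were 94.3%, 94.02%, 95.73%, and 90.45%. EC marker barcodes, which should lack the gene, had a UMI in 0.6993% to 4.088% after thinning.

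*Tyrobp* (chr7:30413760-30417585), the adaptor, did not follow its receptor. Its level was 3607, 2937, 2423, and 2574 CPM in microglia and 3124, 2897, 2750, and 2652 CPM in other myeloid barcodes. The ranges overlapped, and the log2 difference of −0.21 (SE 0.13) did not pass the edgeR test (adjusted p = 0.238) and was at 8e-04 with total UMI scaling.

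*Cst7* (chr2:150570415-150578944), which encodes cystatin F, an inhibitor of lysosomal cysteine proteases, was the gene of the set with the largest difference between the classes. It was measured at 330, 186, 101, and 277.5 CPM in microglia and at 25.6, 22.3, 21.5, and 21.4 CPM in other myeloid barcodes. The 4 levels in other myeloid barcodes were nearly equal, and every microglial level was several times higher. The log2 difference was 2.98 (SE 0.27, edgeR adjusted p = 0.000147). Within libraries, the log2 ratio of CPM ranged from 2.24 in Ctrl to 3.69 in *EC-Ang2*. Free RNA could account for at most 7.918% to 20.62% of the *Cst7* UMIs in other myeloid barcodes. A UMI was found in 35.08%, 23.16%, 16.29%, and 26.97% of thinned microglia and in 3.028% to 4.237% of thinned other myeloid barcodes.

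*Lgals3* (chr14:47367751-47386160) encodes galectin-3, a lectin that macrophages secrete and carry on damaged lysosomes. Its level was 2074, 1748, 768, and 1426 CPM in microglia and 3197, 3983, 2649, and 4156 CPM in other myeloid barcodes, without overlap. The log2 difference was −1.50 (SE 0.22, edgeR adjusted p = 0.00119). *Fabp5* (chr3:10012548-10016607), a carrier of fatty acids inside the cell, was at 954, 511, 67.5, and 364 CPM in microglia and at 1387, 1005, 173, and 881 CPM in other myeloid barcodes. The log2 difference was −1.24 (edgeR adjusted p = 0.00098), and the microglial level was the lower in each of the 4 libraries although the ranges over libraries overlapped.

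*Gpnmb* (chr6:49036546-49070929), a membrane glycoprotein of phagocytes loaded with lipid, was at 467, 144, 27.3, and 115 CPM in microglia and at 670, 268, 31.6, and 348 CPM in other myeloid barcodes. It was lower in microglia in every library (log2 difference −1.01, edgeR adjusted p = 0.0045). Both classes had their highest level in mIgG1 and their lowest in Ctrl. *Spp1* (chr5:104435118-104441050), which encodes osteopontin, a secreted ligand of integrins and CD44, was at 2928, 2815, 690, and 1825 CPM in microglia and at 3483, 4184, 1612, and 2020 CPM in other myeloid barcodes. Its log2 difference of −0.75 passed the edgeR test (adjusted p = 0.0196) but not without the Ang2 Ab library or without cycling barcodes.

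*Itgax* (chr7:128129547-128150657), the integrin chain of CD11c, was scarce, at 39.3, 44.2, 25.7, and 21.4 CPM in microglia and 35.1, 78.0, 61.1, and 38.8 CPM in other myeloid barcodes. Its log2 difference of −0.88 (edgeR adjusted p = 0.0196) was lost on leaving out Ang2 Ab, Ctrl, or *EC-Ang2*, and within mIgG1 alone the ratio of CPM was 0.16 on the log2 scale. *Cd9* (chr6:125460266-125494791, minus strand), a tetraspanin of the cell surface, was at 1071, 1030, 1015, and 769 CPM in microglia and 931, 1172, 983, and 1198 CPM in other myeloid barcodes. It did not pass the test (log2 difference −0.35, SE 0.15, edgeR adjusted p = 0.0984).

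**Figure D1:**
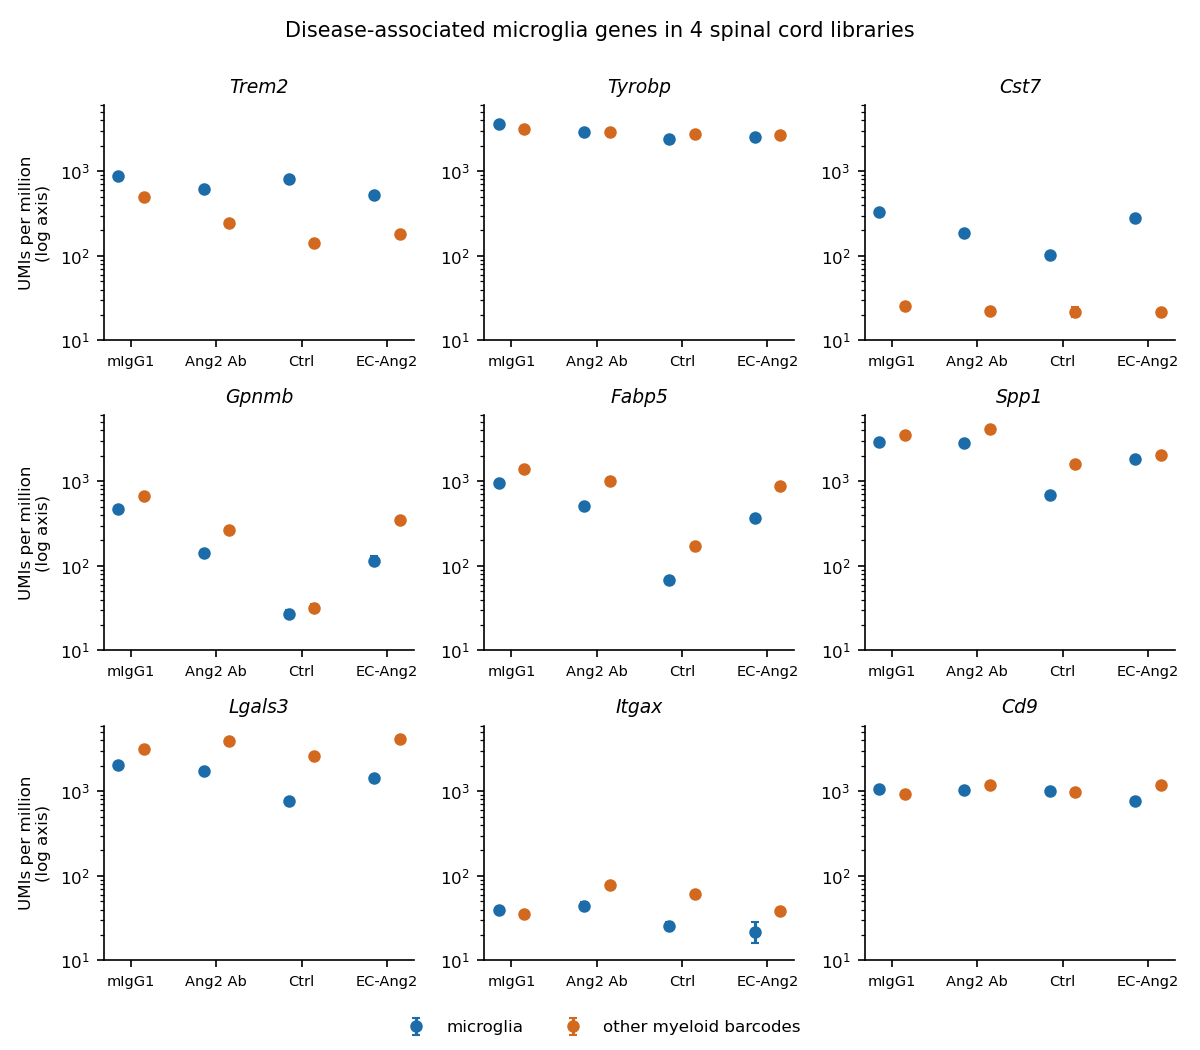
Level of each of the 9 measured genes (CPM, log axis) in the 4 libraries, 1 point per library for microglia (blue) and other myeloid barcodes (orange), with exact Poisson 95% intervals. *Cst7* and *Trem2* lie higher in microglia in each library, and *Lgals3* lies lower, without overlap between microglia and other myeloid barcodes. Of all genes tested, 31.4% did not overlap.

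In stringent microglia the separation of the genes was wider, but this class was defined by leaving out barcodes with several macrophage genes. In all microglia, *Lgals3*, *Gpnmb*, *Fabp5*, and *Spp1* went with macrophage transcripts in each library, and *Cst7* went against them. The wider separation thus follows in part from the definition and is no separate support. The log2 difference from other myeloid barcodes was 3.51 for *Cst7* and 1.54 for *Trem2*, but −2.88 for *Lgals3*, −2.71 for *Gpnmb*, −2.49 for *Fabp5*, −1.55 for *Spp1*, and −1.24 for *Itgax*. The same 2 genes were higher and the same 5 lower. *Lgals3* was then at 1268, 876, 172, and 499 CPM, of which free RNA could account for at most 19.37% in Ctrl. *Gpnmb* was at 230, 54.7, 4.30, and 26.6 CPM. *Cst7* was at 597, 262, 107, and 491 CPM, higher than in all microglia of the same library.

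The levels also followed the number of microglial UMIs of a barcode. When myeloid barcodes were split at 0, 1 to 3, 4 to 7, and 8 or more UMIs of the 4 microglial genes, *Trem2* increased at each step in each library, from 369 to 917 CPM in mIgG1 and from 117 to 850.5 CPM in Ctrl. *Cst7* increased at each step in 3 libraries, from 20.5 to 419 CPM in mIgG1 and from 19.4 to 396 CPM in *EC-Ang2*, whereas in Ctrl it was 132 CPM at 4 to 7 UMIs and 97.5 CPM at 8 or more. *Gpnmb*, *Fabp5*, and *Lgals3* were lowest at 8 or more in each library. *Gpnmb* in Ctrl was at 36.0, 24.7, 162, and 10.8 CPM over the 4 steps, so that most of the *Gpnmb* UMIs of Ctrl microglia came from barcodes at 4 to 7, and only 3.169% of Ctrl microglia held any. Barcodes of the last step were also deeper, with medians of 8145.5 to 16781 UMIs against 5477 to 7313 in the first, and the part of depth in this order was not tested.

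**Figure D2:**
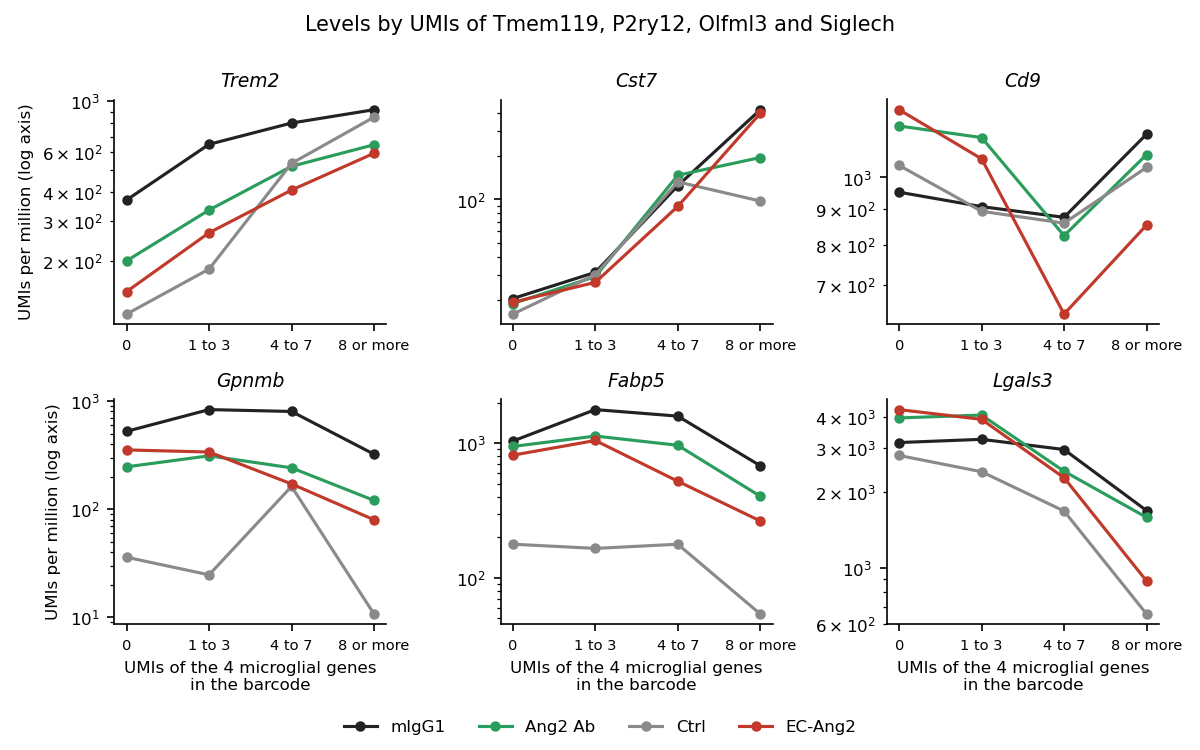
Level (CPM, log axes that differ between panels) of 6 of the measured genes in myeloid barcodes with 0, 1 to 3, 4 to 7, and 8 or more UMIs of 4 microglial genes, 1 line per library. *Trem2* climbs in each library, and *Gpnmb*, *Fabp5*, and *Lgals3* are lowest at 8 or more.

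The other myeloid barcodes were a mixture, and the genes were not spread evenly within it. In mIgG1, the 74 barcodes with border macrophage markers (*Mrc1*, *Cd163*, *Pf4*, and *Lyve1*) had 8964 CPM of *Spp1*, 1458 CPM of *Gpnmb*, and 862 CPM of *Trem2*, and the 77 such barcodes of Ang2 Ab had 7715, 516, and 608 CPM, so that *Trem2* was close to its level in microglia of the same library (882 and 620 CPM). In Ctrl, 24 such barcodes had 471 CPM of *Spp1* and 33.6 CPM of *Gpnmb*, and in *EC-Ang2* 33 had 3227 and 333 CPM. Their *Trem2* was at 218.5 CPM in Ctrl and 357 CPM in *EC-Ang2*, below the 816 and 520 CPM of microglia there. Barcodes with monocyte markers had 1963, 2423, 1324, and 1641 CPM of *Spp1*. The remaining barcodes, assigned by no border macrophage, monocyte, dendritic cell, or granulocyte markers, had 4163, 6254, 4110, and 3430 CPM. *Trem2* was lowest in barcodes with dendritic cell or granulocyte markers, at 14.8 to 77.0 CPM in the former and 46.3 to 194 CPM in the latter. *Cst7* stayed between 8.06 and 52.5 CPM in all of these subgroups and libraries. Granulocyte marker barcodes numbered 67, 169, 306, and 386, and the summed level of the 6 granulocyte markers in other myeloid barcodes was 647, 1789, 13170, and 5584 CPM, so that the make-up of this class differed between the libraries. Its part in the differences between libraries was not tested. In an alternative, granulocyte and dendritic cell marker barcodes were left out together, and the median of the set without them is given for the overexpression pair.

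Genes that work with the set were compared between the classes by the same test, in which 19% of all genes were higher and 20.8% lower in microglia. Of 10 ligands and signalling genes of TREM2, 4 were higher in microglia by the edgeR test, namely *Inpp5d* (log2 difference 0.95), which encodes a lipid phosphatase that restrains the receptor, *Lat2* (0.67), *Plcg2* (0.45), and *Vav1* (0.37). *Syk*, the kinase recruited by TYROBP, was lower (−0.62), as was the ligand *Clu* (−0.60), whereas *Apoe* did not pass (−0.27, adjusted p = 0.242). Of 8 partners of the encoded proteins, 5 were higher, including the tetraspanins *Cd81* (3.52) and *Cd63* (1.34) and the osteopontin receptor chain *Itgb5* (2.102), and 2 were lower, with the osteopontin receptor *Cd44* at −1.27. Of 21 other disease-associated microglia genes, 7 were higher, led by *Serpine2* (3.09), *Cadm1* (2.38), and *Timp2* (2.33), and 6 were lower, including *Ccl6* (−1.46) and *Lyz2* (−1.43). None of 12 lysosome and lipid genes was higher and 9 were lower, led by *Ctsk* (−1.71), *Atp6v0d2* (−1.65), and *Tfec* (−1.57), with the lipid droplet gene *Plin2* at −1.08. Markers of other cells moved with the classes too: T cell markers were higher in microglia (3 of 4 tested), endothelial markers lower (4 of 4), and cycling genes higher (12 of 12), where the 7 calls of the set also stood at 7 without barcodes of 4 or more endothelial or T cell UMIs.

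Next, the Ang2 Ab and mIgG1 libraries were set side by side. In microglia, the Ang2 Ab library had less *Gpnmb*, *Fabp5*, and *Cst7*, while *Spp1*, *Cd9*, and *Itgax* were close in both. Called genes are those with a 1.5-fold or larger difference, 50 or more UMIs over both libraries, and a UMI in at least 10% of the barcodes of either. Of 7837 genes, 8.46% were called, 6.12% higher and 2.34% lower in Ang2 Ab, and the 3 genes of the set were called lower, with none higher. With 1 library per condition, these are differences between libraries, with no replicate check.

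*Gpnmb* was at 467 (mIgG1) and 144 (Ang2 Ab) CPM in microglia, a log2 ratio of −1.70 (95% interval −1.79 to −1.61). *Fabp5* was at 954 and 511 CPM (−0.90, −0.95 to −0.85), and *Cst7* at 330 and 186 CPM (−0.83, −0.92 to −0.74). *Trem2* was at 882 and 620 CPM (−0.51, −0.56 to −0.46) and *Tyrobp* at 3607 and 2937 CPM (−0.30, −0.32 to −0.27), both under the fold for a call. *Lgals3* differed by −0.25, *Spp1* by −0.06, *Cd9* by −0.06, and *Itgax*, with 350 and 400 UMIs, by 0.17 (−0.04 to 0.38). The median over the 9 genes was −0.30, whereas that of all genes was 0.10.

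Stringent microglia gave the same 3 calls, with log2 ratios of −2.07 for *Gpnmb* (180 and 740 UMIs), −1.19 for *Cst7*, and −0.997 for *Fabp5*, where 12.8% of 7779 genes were called, 9.29% higher and 3.55% lower, and the median over the 9 genes was −0.52. The other 6 genes were also below 0, from −0.53 for *Lgals3* and −0.52 for *Trem2* to −0.08 for *Spp1*. The summed level of the 6 macrophage genes was 788 (mIgG1) and 804 (Ang2 Ab) CPM in stringent microglia. In the same order it was 2766 and 3016 CPM in all microglia, and 6410 and 9256 CPM in other myeloid barcodes. The median number of microglial UMIs in all microglia was 10 (mIgG1) and 14.5 (Ang2 Ab). The part of these differences in the ratios was not tested. The 4 border macrophage markers were lower in Ang2 Ab, at 45.1 and 14.6 CPM in stringent and 85.3 and 44.2 CPM in all microglia, with *Pf4* called lower in both (−2.02 and −1.06), and their part in the ratios of the set was not tested. Cycling barcodes were 13.19% of mIgG1 and 27.76% of Ang2 Ab microglia, and the median ratio without them was −0.24.

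Among 5818 genes in other myeloid barcodes, 4.85% were called between these libraries, 3.16% higher and 1.68% lower. *Gpnmb* was lower in Ang2 Ab (670 and 268 CPM, −1.32, interval −1.37 to −1.28), and so was *Trem2* (501 and 244 CPM, −1.04, −1.09 to −0.99). *Itgax* was higher (35.1 and 78.0 CPM, 1.15, 1.03 to 1.27). The other 6 genes were not called: *Fabp5* had a log2 ratio of −0.46, *Cst7* of −0.20, *Tyrobp* of −0.11, *Spp1* of 0.26, *Lgals3* of 0.32, and *Cd9* of 0.33. *Gpnmb* was thus called in both classes, *Cst7* and *Fabp5* in microglia, and *Trem2* in the other barcodes, where the difference between the classes was not tested.

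**Figure D3:**
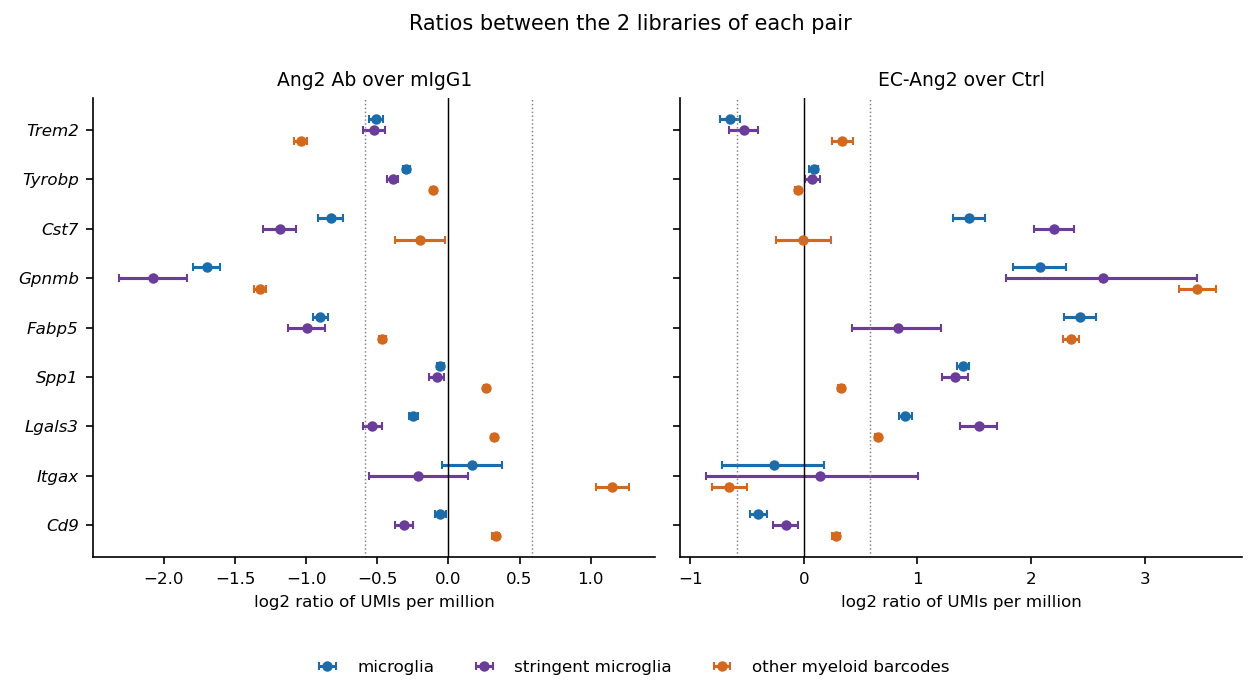
Log2 ratio of each measured gene with its 95% counting interval in the blockade pair (Ang2 Ab over mIgG1) and the overexpression pair (*EC-Ang2* over Ctrl), for microglia, stringent microglia, and other myeloid barcodes. Dotted lines mark 1.5-fold. *Gpnmb* is below −1 in each class of the first pair and above 2 in each class of the second.

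Genes around the set in this pair included *Apoe*, a lipoprotein that binds TREM2, which was at 22470 and 6712 CPM in microglia (−1.74) and at 23350 and 7177 CPM in other myeloid barcodes (−1.70). No other of the 9 TREM2 genes measurable in microglia was called. Among 11 lysosome and lipid genes, the lysosomal lipase *Lipa* (−0.78) and the cholesterol exporter *Abca1* (−0.71) were lower in Ang2 Ab microglia and none was higher. Among 20 other disease-associated microglia genes, *Igf1* (−1.40), *Lyz2* (−1.20), *Ctsd* (−0.76), and *Cd68* (−0.63) were lower and *Ccl6* (1.03) and *Ch25h* (1.15) were higher. Of 12 homeostatic genes, *Fcrls* (1.52) and *Selplg* (0.61) were higher and none was lower, where 6.12% of all genes were higher. In stringent microglia 1 of the 12 was higher, and their median log2 ratio was 0.13 against 0.11 for all genes. Of 8 genes that respond to tissue dissociation, 5 were higher in Ang2 Ab, and their part in the other ratios was not tested.

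The overexpression pair had its own pattern. *EC-Ang2* microglia held more *Fabp5*, *Gpnmb*, *Cst7*, *Spp1*, and *Lgals3* than Ctrl microglia but less *Trem2*. Of 7400 genes, 17.5% were called, 4.8% higher and 12.7% lower in *EC-Ang2*, and of the set 5 genes were called higher and 1 lower. The median over the 9 genes was 0.89, against −0.07 for all genes.

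*Fabp5* was at 67.5 CPM in Ctrl and 364 CPM in *EC-Ang2* microglia, a log2 ratio of 2.43 (95% interval 2.29 to 2.57). *Gpnmb* was at 27.3 and 115 CPM (2.08, 1.84 to 2.31), *Cst7* at 101 and 277.5 CPM (1.45, 1.31 to 1.59), *Spp1* at 690 and 1825 CPM (1.40, 1.35 to 1.46), and *Lgals3* at 768 and 1426 CPM (0.89, 0.84 to 0.95). *Trem2* was lower, at 816 and 520 CPM (−0.65, −0.74 to −0.56). *Tyrobp* (0.09), *Itgax* (−0.26, −0.72 to 0.18, from 332 and 49 UMIs), and *Cd9* (−0.40) were not called.

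Markers of other cells moved with these ratios. The summed level of the 6 macrophage genes in microglia was 2654 CPM in Ctrl and 5634 CPM in *EC-Ang2*, the median number of microglial UMIs was 21 and 7, and all 4 genes of the microglial rule were called lower in *EC-Ang2*. The border macrophage markers were at 13.2 and 106 CPM in microglia, above the 60.3 CPM of other myeloid barcodes of *EC-Ang2*, and the granulocyte markers at 2848 and 574 CPM. The part of these markers in the ratios was not tested. With at least 8 microglial UMIs, *Lgals3* was at 656 and 887 CPM and no longer reached 1.5-fold (0.44, also the median of the set), whereas *Gpnmb* (2.89), *Fabp5* (2.29), *Cst7* (2.02), and *Spp1* (0.97) did. In stringent microglia, of which *EC-Ang2* had 51, the summed level of macrophage genes was 364 and 380 CPM, that of border macrophage markers 6.31 and 2.42 CPM, with 1 of the 4 detected in *EC-Ang2*, and that of granulocyte markers 2552 and 640 CPM. There, *Gpnmb* (2.63, from 32 and 22 UMIs), *Cst7* (2.20), *Lgals3* (1.54), *Spp1* (1.33), and *Fabp5* (0.83) were again called higher, where 24.1% of 7599 genes were called, 7.47% higher and 16.7% lower. *Gpnmb* was found in 11.76% of the 51 *EC-Ang2* barcodes, just past the limit for a call, and free RNA could account for at most 37.07% of its UMIs in Ctrl and 15.83% in *EC-Ang2*. *Fabp5* was at 45.7 and 80.9 CPM, of which free RNA could account for at most 15.01% in *EC-Ang2*, and its ratio was far smaller than in all microglia. After thinning, a *Fabp5* UMI was found in 6.441% of Ctrl and 5.882% of *EC-Ang2* stringent microglia. The *EC-Ang2* interval was 1.23% to 16.24%, so these shares cannot tell whether *Fabp5* was found more often at equal depth. The other genes called higher there had larger thinned shares in *EC-Ang2* than in Ctrl. These were 15.93% and 41.18% for *Cst7*, 13.56% and 33.33% for *Spp1*, and 13.9% and 31.37% for *Lgals3*. For *Gpnmb* they were 0.226% and 5.882%, from 2 and 3 barcodes. *Trem2* (971 and 674 CPM, −0.53, −0.65 to −0.40) was no longer called. *Cst7*, at 107 and 491 CPM, had a larger ratio in stringent than in all microglia.

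Of 5622 genes in other myeloid barcodes, 10.1% were called in this pair, 3.47% higher and 6.62% lower. *Gpnmb* was at 31.6 CPM in Ctrl and 348 CPM in *EC-Ang2* (3.46, 3.30 to 3.63), *Fabp5* at 173 and 881 CPM (2.35, 2.28 to 2.42), and *Lgals3* at 2649 and 4156 CPM (0.65, 0.63 to 0.67). *Itgax* was called lower (61.1 and 38.8 CPM, −0.65, −0.81 to −0.50). *Trem2* (0.34), *Spp1* (0.33), *Cd9* (0.29), *Tyrobp* (−0.05), and *Cst7* (−0.004, −0.24 to 0.24) were not called. Without granulocyte and dendritic cell marker barcodes, the median over the 9 genes moved from 0.33 to 0.29.

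Homeostatic genes went with this pattern in microglia, where 10 of 12 were called lower in *EC-Ang2*, led by *Fcrls* (−2.22), *Gpr34* (−1.49), and *Sparc* (−1.35), and 7 of 12 were in stringent microglia. Of 10 lysosome and lipid genes in microglia, *Abca1* (1.24), *Plin2* (1.10), and *Tfec* (0.92) were higher and none was lower. Among other myeloid barcodes, 4 of 12 were higher, with the collagen-degrading protease *Ctsk* at 2.19 and 33.2 CPM (3.92), *Atp6v0d2* at 8.27 and 52.9 CPM (2.68), *Abca1* at 1.08, and *Plin2* at 0.65. *Apoe* was at 2577 CPM in Ctrl and 6633 CPM in *EC-Ang2* microglia (1.36), but at 2116 and 2607 CPM in stringent microglia (0.30). Among other disease-associated microglia genes in microglia, *Ccl6* (1.56), *Lyz2* (1.34), and *Fth1* (0.91) were higher, and *Serpine2* (−1.75) was lower. *Lyz2* and *Ccl6* were −0.19 and −0.14 in stringent microglia. Dissociation genes were lower in *EC-Ang2*, 7 of 8 in microglia (median −1.63) and 8 of 8 in stringent microglia, with a summed level of 6863 CPM in Ctrl and 2926 CPM in *EC-Ang2* microglia, and their part in the ratios of the set was not tested.

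To ask whether single cells carried several of the genes at once, each barcode was thinned to 2000 UMIs, which left out none, and the 7 genes other than *Trem2* and *Tyrobp* were counted. The median number with a UMI was 4, 3, 1, and 2 in microglia and 3, 3, 2, and 2 in other myeloid barcodes. Microglia with 5 or more made up 26.84% (exact binomial interval 23.51% to 30.37%), 11.81% (9.433% to 14.54%), 0.5158%, and 1.124%. Barcodes with 0 or 1 made up 9.295%, 19.79%, 54.61%, and 24.72%. In stringent microglia, 5 or more were found in 18.87%, 5.556%, 0%, and 1.961%, and 0 of 885 in Ctrl allows a share of up to 0.416% of barcodes with UMIs of 5 genes at this depth, not of cells that express them. In other myeloid barcodes the shares were 19.4%, 13.92%, 2.331%, and 8.536%.

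**Figure D4:**
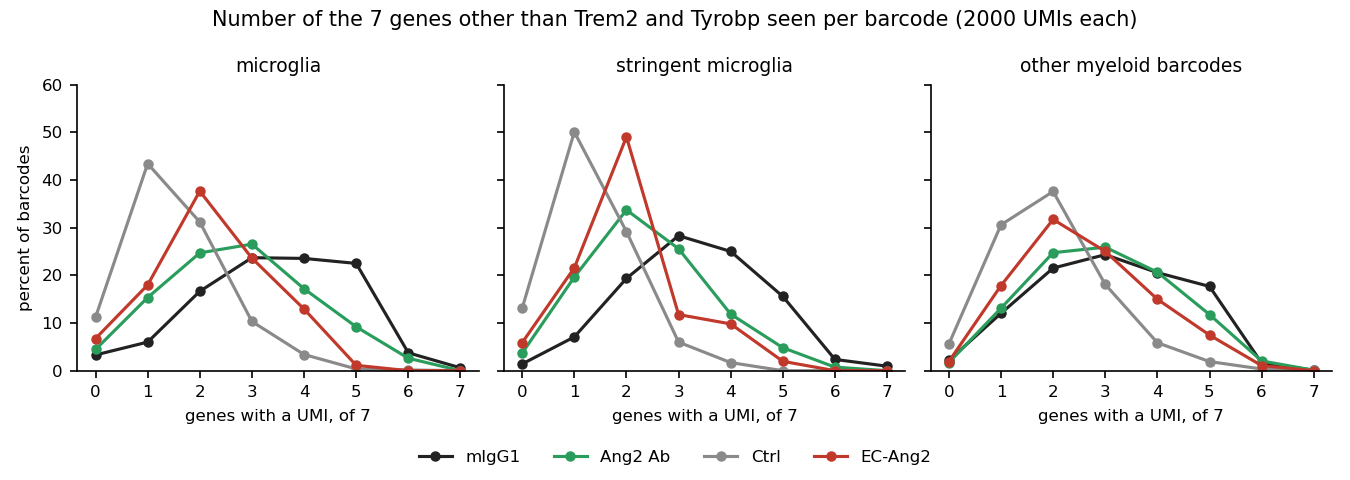
Share of barcodes (%) by the number of the 7 genes other than *Trem2* and *Tyrobp* with a UMI after thinning to 2000 UMIs, for each class and library. Ctrl microglia peak at 1 gene and mIgG1 microglia at 3 to 5.

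Within a library and class, the genes were only loosely tied to each other. Over the 36 pairs, the median Spearman's rho across thinned barcodes was 0.0564, 0.0411, 0.0414, and 0.0209 in microglia and 0.1167, 0.0802, 0.0353, and 0.0424 in other myeloid barcodes, values that describe sparse counts of barcodes of 1 library and carry no test. The highest pairs in microglia, as medians of the 4 libraries, were *Fabp5* with *Lgals3* (0.41), *Spp1* with *Lgals3* (0.31), *Gpnmb* with *Fabp5* (0.31), and *Gpnmb* with *Lgals3* (0.29). Libraries differed within these medians: *Gpnmb* with *Fabp5* was at 0.56, 0.50, 0.12, and 0.13. In Ctrl and *EC-Ang2*, only 12 and 11 microglia held a *Gpnmb* UMI after thinning. *Cst7* had −0.17 with *Lgals3* and −0.12 with *Fabp5*, but −0.05 and 0.03 in stringent microglia. The highest in other myeloid barcodes were *Gpnmb* with *Fabp5* (0.45), *Gpnmb* with *Lgals3* (0.37), and *Spp1* with *Lgals3* (0.35).

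In microglia, the *Lgals3* group also went with macrophage transcripts. Spearman's rho of *Lgals3* with the summed macrophage genes was 0.42, 0.57, 0.53, and 0.50, and with the summed homeostatic genes −0.47, −0.46, −0.40, and −0.48. *Cst7* had −0.43, −0.22, −0.03, and −0.35 with macrophage genes, and *Trem2* had 0.24, 0.28, 0.46, and 0.27 with homeostatic genes. These values were mostly weaker in stringent microglia, where *Lgals3* had 0.28, 0.30, 0.12, and −0.12 with macrophage genes and −0.50, −0.35, −0.16, and −0.10 with homeostatic genes. Stringent microglia were chosen by these same macrophage genes, which narrows the range of their sum. Weaker values with macrophage genes in that class are therefore no separate result. *Cst7* there had −0.19, −0.01, 0.02, and −0.03 with macrophage genes, and *Trem2* kept 0.19, 0.21, 0.42, and 0.35 with homeostatic genes. In stringent microglia, *Trem2* with *Tyrobp* was the highest pair (0.22), and *Fabp5* with *Lgals3* dropped to 0.17, with 0.0074 in Ctrl and 0.0311 in *EC-Ang2*. Microglia with a *Cst7* UMI in mIgG1 held *Cd9* in 85.47%, against 72.98% of those without, and *Gpnmb* in 21.79% against 39.95%. The shares for *Cd9* were 78.81% against 76.45% in Ang2 Ab, 83.26% against 77.02% in Ctrl, and 81.25% against 60% in *EC-Ang2*. For *Gpnmb* they were 11.92% against 13.77%, 1.357% against 0.7923%, and 4.167% against 6.923%. Only 12 Ctrl and 11 *EC-Ang2* microglia held a *Gpnmb* UMI after thinning. The interval of the 1.357% in Ctrl was 0.2808% to 3.916%, so no direction can be read there. In stringent microglia the *Cd9* shares were 91.2% against 83.91%, 77.38% against 82.26%, 83.69% against 79.97%, and 90.48% against 76.67%, with Ang2 Ab the other way. Those of *Gpnmb* were 15.2% against 24.14%, 4.762% against 5.376%, 0.7092% against 0.1344%, and 9.524% against 3.333%. Only 2 Ctrl and 3 *EC-Ang2* stringent microglia held a *Gpnmb* UMI after thinning, too few to read a direction.

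**Figure D5:**
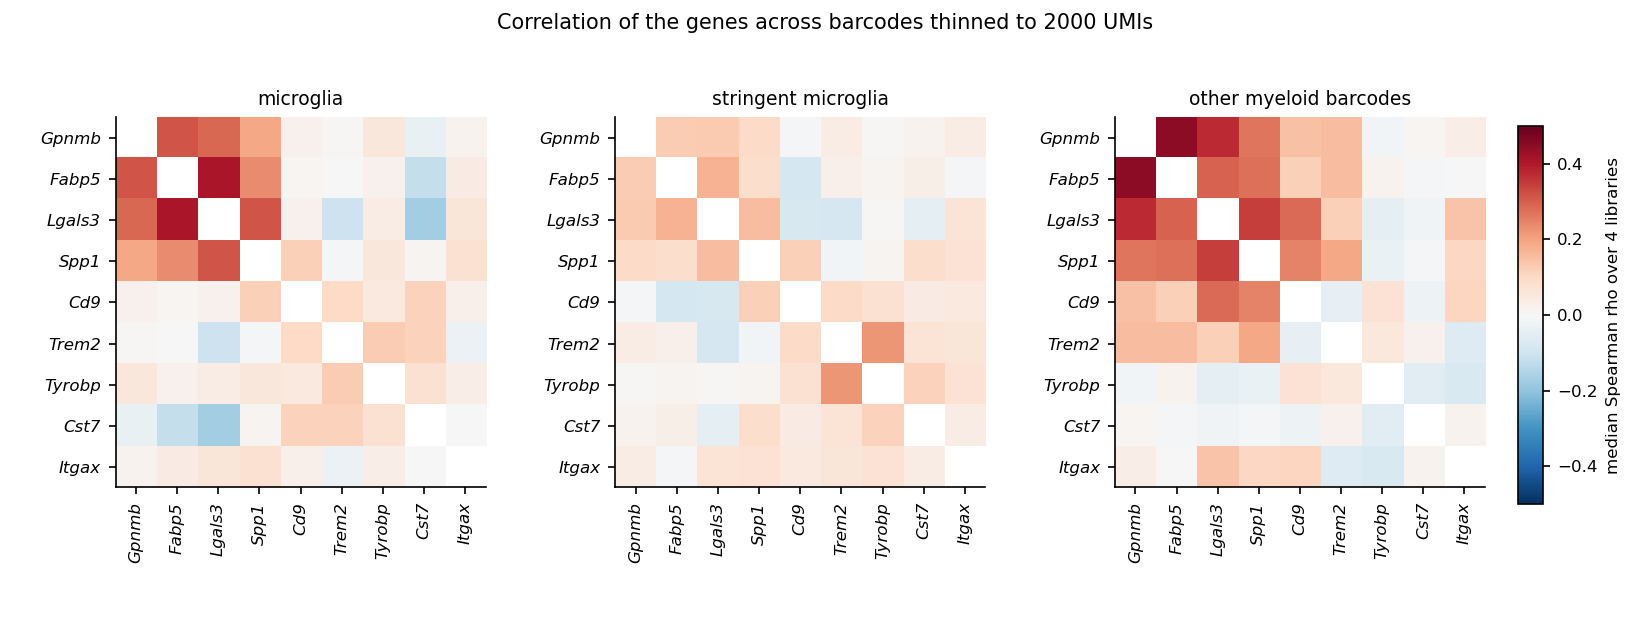
Spearman's rho for the 36 pairs of the 9 measured genes across barcodes thinned to 2000 UMIs, as the median of the 4 libraries, in microglia, stringent microglia, and other myeloid barcodes. *Gpnmb*, *Fabp5*, *Spp1*, and *Lgals3* form a block in microglia and other myeloid barcodes that is fainter in stringent microglia.

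The UMIs of the measured genes other than *Tyrobp* were summed in each thinned barcode. Abundant genes weigh most in this sum, *Spp1* and *Lgals3* in mIgG1 microglia (2928 and 2074 CPM) and *Cd9* and *Trem2* in Ctrl microglia (1015 and 816 CPM). The genes most like the set were those whose UMIs went with this sum, so that likeness to each gene of the set is not implied. Among 1941 genes in microglia they were *Ftl1* (median rho of the 4 libraries 0.53), *Lyz2* (0.46), *Fth1* (0.44), *Arg1* (0.42), and *Cstb* (0.40). *Ftl1* and *Fth1* encode the chains of ferritin. In Ctrl microglia these genes were at 0.22, 0.22, 0.15, 0.22, and 0.18 in this order, against 0.38 to 0.57 in the other libraries. *Arg1* is also one of the macrophage genes by which stringent microglia were chosen. The part of macrophage transcripts in this list was not tested, and no such list is given for stringent microglia. Among 1906 genes in other myeloid barcodes the genes most like the set were *Ftl1* (0.61), *Psap* (0.57), *Ctsd* (0.55), *Cstb* (0.53), and *Ctsb* (0.53). *Ctsd* and *Ctsb* encode lysosomal proteases and *Psap* the precursor of saposins, which assist lipid breakdown. Among the least alike were *Rpl13a* (−0.29) in microglia and *Plac8* (−0.44) and *Ifitm3* (−0.40) in other myeloid barcodes, where the median gene was at −0.0131 and −0.0067. In Ctrl these values were weaker, at −0.07 for *Rpl13a* and −0.15 for *Ifitm3*. *Plac8* was at −0.001 there, so that it went against the sum only in the other libraries.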

How the data were processed

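Sorted CD45+ and CD31+ SC cells of 4 conditions were sequenced as 1 library each. Per the labels and the study's methods, the authors counted UMIs with Cell Ranger 2.1.1 against mm10 and analyzed them with Seurat 2.3.4; the deposited counts are raw UMI counts of 27998 genes for every barcode, empty droplets included, before the authors' own removal of doublets and cycling cells. The counts of barcodes with at least 2000 UMIs were used here. UMIs were summed per library and class, 4 sums for each of the 2 classes. The 2 classes were compared with edgeR 4.0.16 (quasi-likelihood test, TMM, filterByExpr, library as a block, Benjamini-Hochberg over all genes tested), checked on simulated counts, and with DESeq2 1.42.0 as an alternative. Because 1 library per condition allows no test between conditions, pairs were described by CPM ratios with exact binomial intervals. Co-expression used barcodes thinned to 2000 UMIs. The upper limit of free RNA was set from the share of barcodes with 0 endothelial UMIs and the profile of empty droplets. Doublets were not removed in the main analysis; Scrublet scores were used as an alternative. Genes named were the whole set and, from each other list, a selection of those called, mostly with the largest differences. A few genes, such as *Apoe*, were also given where they were not called. The genes, lists, and tests were chosen with earlier results of these data known, and the lists are therefore no independent evidence. Scripts ran in Python 3.11.15 and R 4.3.3.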

Additional observations from a re-analysis of the deposited data

Results flagged for a closer look

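Some genes of the set had log2 ratios of opposite sign in microglia and in other myeloid barcodes, a difference that could not be tested with 1 library per condition. In the blockade pair these were *Spp1* (−0.0567 in microglia and 0.2645 in other myeloid barcodes), *Lgals3* (−0.2469 and 0.3174), and *Cd9* (−0.0559 and 0.3319). In the overexpression pair they were *Trem2* (−0.6488 and 0.3393), *Tyrobp* (0.0873 and −0.0523), and *Cd9* (−0.4001 and 0.285). Of these 12 ratios, that of *Trem2* in *EC-Ang2* microglia was the one beyond 1.5-fold. *Cst7* in the overexpression pair also had opposite signs, 1.4537 in microglia and −0.0043 in other myeloid barcodes. The interval of the latter, −0.2442 to 0.239, held 0.

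Outside the myeloid barcodes, 3 genes of the set were at least 3 times the estimated free RNA level in each of the 4 libraries. This estimate is not the upper limit of free RNA given earlier, which was not set for EC marker barcodes. *Tyrobp* was at 0.92 to 1.15 times the level used here in EC and T cell marker barcodes. *Cd9* was at 285.0, 276.0, 322.2, and 480.9 CPM in EC marker barcodes of mIgG1, Ang2 Ab, Ctrl, and *EC-Ang2*, 6.258 to 20.58 times the estimated free RNA. In T cell marker barcodes, *Lgals3* was at 426.3, 453.5, 459.5, and 354.5 CPM (3.54 to 11.58 times) and *Cst7* at 64.76, 98.15, 37.4, and 51.04 CPM (7.265 to 26.51 times). *Fabp5* (1.565 to 12.8 times) and *Itgax* (1.136 to 11.42 times) in T cell marker barcodes passed 3 times in Ctrl and *EC-Ang2*, and *Gpnmb* (3.512 times) in Ctrl. For *Itgax* this rested on 8 (Ctrl) and 6 (*EC-Ang2*) UMIs and for *Gpnmb* on 5, so these 2 genes were near the floor there. T cell markers were in 13.79% of mIgG1 microglia at 4 or more UMIs, and without barcodes of 4 or more endothelial or T cell UMIs the log2 difference of *Cst7* between microglia and other myeloid barcodes was 2.99.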

How the results depend on the processing

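Of the 9 measured genes, 7 passed the edgeR test between the classes, and 5 to 8 passed on leaving out 1 library. Without the replicate block, 3 passed. No paired analysis was possible because the labels give 1 library per condition for the ratios between conditions. *Spp1* was lost without Ang2 Ab or without cycling barcodes, and *Itgax* without Ang2 Ab, Ctrl, or *EC-Ang2*; *Cd9* passed without mIgG1, with at least 20 myeloid UMIs, or with no filter on low counts. DESeq2 gave 7. With total UMI scaling, *Tyrobp* turned to 8e-04, the median of all genes was 0.2042, and 69.82% of calls were higher in microglia against 47.81% with TMM.

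The median ratio of the set kept its sign under every alternative run. In the blockade pair it was −0.3366 in microglia with at least 8 microglial UMIs, −0.2427 without cycling barcodes, −0.5066 without microglia holding macrophage transcripts, −0.5225 in stringent microglia, and −0.4201 with TMM scaling. In other myeloid barcodes it was −0.1378 with at least 20 myeloid UMIs, −0.138 without cycling barcodes, −0.1322 without endothelial or T cell marker barcodes, −0.0695 as a mean of CPM per barcode, and −0.0606 with free RNA subtracted. In the overexpression pair it was 0.4359 in microglia with at least 8 microglial UMIs, 1.0952 without cycling barcodes, 0.7471 without microglia holding macrophage transcripts, 1.079 without endothelial or T cell marker barcodes, 0.8253 in stringent microglia, 1.3235 as a mean per barcode, and 0.9947 with TMM scaling. In other myeloid barcodes it was 0.3637 with at least 3000 UMIs, 0.2921 without high Scrublet scores, 0.2925 without cycling barcodes, 0.2933 without granulocyte and dendritic cell barcodes, 0.135 as a mean per barcode, and 0.3822 with TMM scaling. Without thinning, the median rho was 0.0984 in microglia (0.0412 thinned) and 0.1129 in other myeloid barcodes (0.0613). The causes were not tested. The alternatives without endothelial or T cell marker barcodes, with stringent microglia, and with total UMI scaling were added after the data were seen. The 178 *EC-Ang2* microglia, 51 of them stringent, limit every ratio of the overexpression pair.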
